A study of Mus musculus with 6 samples.

Results

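The 10 elastic fibre and microfibril genes *Eln*, *Fbn1*, *Fbln1*, *Fbln2*, *Fbln5*, *Mfap2*, *Mfap4*, *Emilin1*, *Emilin2* and *Efemp2* were chosen by gene symbol, and all 10 were among the 17778 genes with deposited values. RNA had been sequenced from the colon of 3 obesity-prone (OP) and 3 obesity-resistant (OR) mice. All 6 were wild-type male C57BL/6J mice, 21 weeks of age, that had been fed a high-fat diet (60% fat) for 16 weeks, and each mouse was 1 library. OP and OR were not treatments: of 42 mice on the diet, the 10 with the highest weight gain were named OP and the 10 with the lowest were named OR, and no mouse on a normal diet is compared here.

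Elastic fibres give stretch and recoil to vessel walls, skin, lung and the wall of the gut. They hold a core of cross-linked elastin laid down on a scaffold of microfibrils, which are built from fibrillin. Fibulins, microfibril-associated proteins and emilins sit on or between core and scaffold, guide the deposition of elastin and tie the fibre to cells and to latent TGF-β. Fibroblasts and smooth muscle cells are the usual makers of these proteins, while the lining epithelium, which dominates colon RNA, makes little of them.

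Levels are given as FPKM, fragments scaled by transcript length and by the total mapped, which is a per-length scale on which genes can be set beside each other. Each difference is a log2 fold change OP/OR on the log2(FPKM + 1) scale from limma-trend over the 13520 genes that reached an FPKM of 0.5 in 3 or more mice, so a negative value means a lower level in OP mice, and adding 1 shrinks the fold change of low genes. Exact permutation tests were two-sided, and 3 mice against 3 cannot give a p below 0.1. The term q-value stands for a limma-trend p adjusted over all 13520 genes by the Benjamini-Hochberg method. Depth is unknown, since FPKM values carry no read totals. The summed FPKM lay between 585350 and 600028 in the 6 mice, and 16287 to 16619 genes were above 0. Colon epithelial markers summed to 11720 FPKM or more in every mouse, whereas the pancreatic acinar markers summed to at most 1.98 FPKM. Single epithelial markers varied unequally, *Epcam* from 934.63 to 1188 FPKM but *Muc2* from 17.59 to 933.17 FPKM. Whether the mice were drawn from different cages is not given, and the labels name no batch.

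All 10 genes had a lower mean in OP mice than in OR mice, a direction shared by 70.1% of all genes tested. The median log2 fold change of the 10 was -0.63, beside -0.10 over all genes tested. At an unadjusted limma-trend p below 0.05, 6 of the 10 were lower in OP mice (*Fbln2*, *Fbln5*, *Emilin2*, *Efemp2*, *Fbn1* and *Mfap2*), a call made for 3.53% of all genes tested. In 6 of the 10 (*Fbln2*, *Fbln5*, *Emilin2*, *Efemp2*, *Mfap2* and *Emilin1*) every OP mouse was below every OR mouse, which was so for 6.81% of all genes tested. No member passed a q-value of 0.2 with the fold change thresholds of 1.2 and 0.83. That call was made for 0.0222% of all genes tested, and the members' q-values ran from 0.582 to 0.945.

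*Emilin2* passed the filter on low values only through its OR mice and so had to differ. Without it the median was -0.67 and 5 of 9 genes had an unadjusted limma-trend p below 0.05. In 5 of these 9 genes every OP mouse was below every OR mouse. *Fbln1*, *Fbln2*, *Fbn1*, *Mfap2* and *Mfap4* stand in the study's list of key driver genes. The study drew that list from genes that passed its own DESeq2 q-value of 0.05. It was derived from the differences between these same mice, so the direction of these genes is not independent evidence. The other 5 genes (*Eln*, *Fbln5*, *Emilin1*, *Emilin2* and *Efemp2*) had a median of -0.48, and 3 of the 5 had an unadjusted limma-trend p below 0.05. Those 3 were *Fbln5*, *Efemp2* and *Emilin2*, and *Emilin2* had to differ. The count of 6 and the share of all genes it is read against both moved when 1 mouse was left out. Without OR mouse 3 they were 2 members (*Fbln2* and *Emilin2*) and 1.71% of all genes. Without OR mouse 1 they were 3 and 2.13%, and without OP mouse 1 they were 4 and 2.29%. Without OP mouse 2 they were 3 and 4.53%, so fewer members and more genes were called, and without OP mouse 3 they were 7 and 8.17%. Median-of-ratios scaling gave 4 members and 3.13%. Each of these counts includes *Emilin2*, which had to differ. In bulk tissue, fewer cells that make these proteins and less RNA per cell cannot be told apart.

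**Figure D1:**
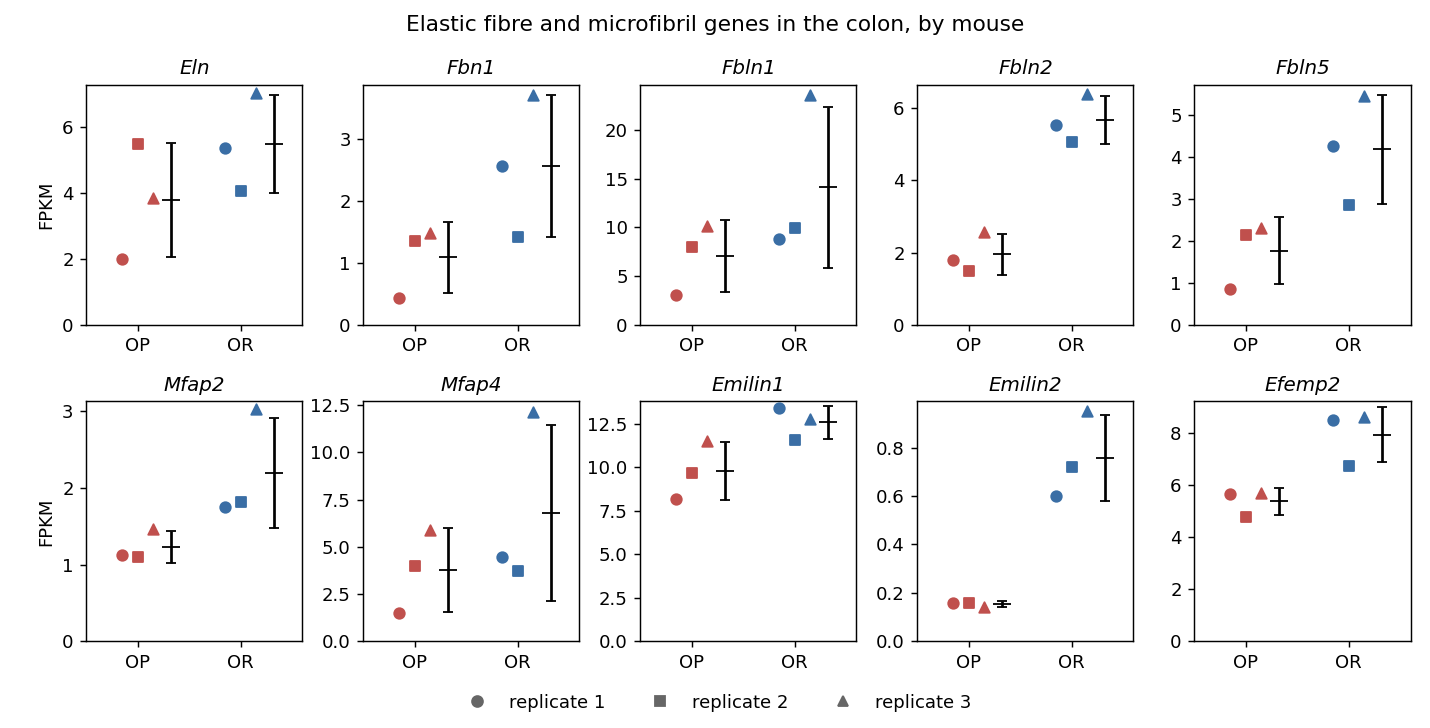
Deposited FPKM of each of the 10 genes (vertical axes, from 0) in the 3 OP and 3 OR mice, with the marker shape giving the replicate number and the black bar the mean ± SD of the group. In *Fbln2* the OP mice lie between 1.49 and 2.57 and the OR mice between 5.07 and 6.4, whereas in *Eln* and *Mfap4* the groups overlap.

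**Figure D2:**
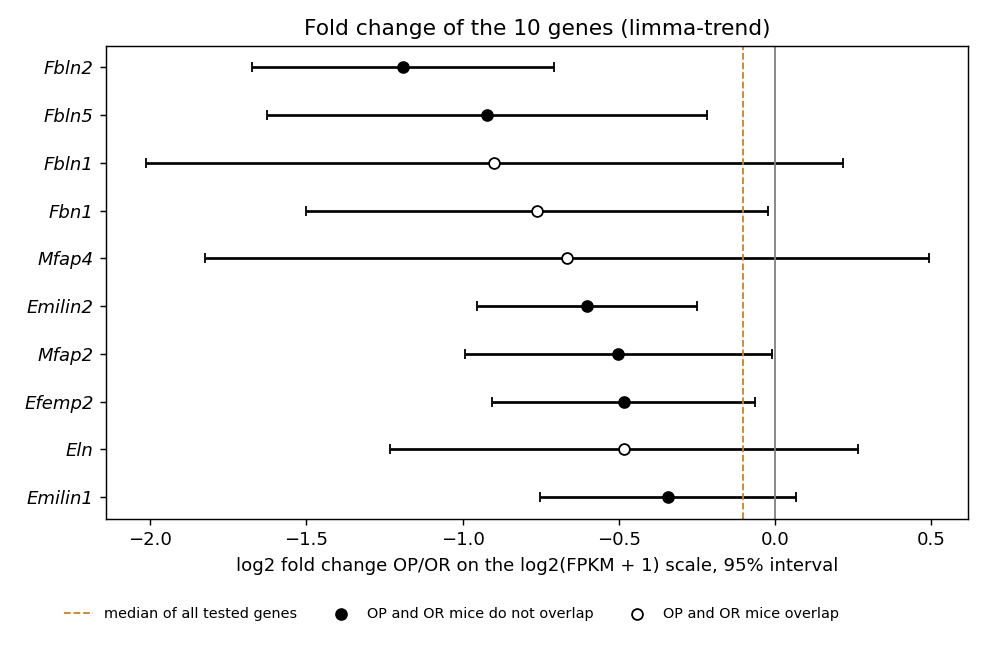
Log2 fold change OP/OR of the 10 genes on the log2(FPKM + 1) scale with its 95% interval from limma-trend, filled where no OP mouse reaches an OR mouse. All 10 points lie below 0 and below the median of all tested genes (dashed, -0.10), and the intervals of *Fbln1*, *Mfap4*, *Eln* and *Emilin1* include 0.

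*Eln* encodes tropoelastin, the soluble unit of the elastic core. It measured 2, 5.46 and 3.84 FPKM across OP mice 1 to 3 against 5.34, 4.05 and 7.01 FPKM across OR mice 1 to 3. The groups overlapped, since OP mouse 2 was above OR mice 1 and 2. The OP mean was 3.77 ± 1.73 (SD, n = 3), the OR mean was 5.47 ± 1.48 (SD, n = 3), and the log2 fold change was -0.48 (standard error 0.32, 95% interval -1.23 to 0.27, unadjusted limma-trend p = 0.172, exact permutation p = 0.3). Elastin thus showed no difference beyond the spread between mice at this number of mice.

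*Fbn1* encodes fibrillin-1, the main building block of the microfibril. It measured 0.43, 1.35 and 1.47 FPKM across OP mice 1 to 3 against 2.56, 1.42 and 3.7 FPKM across OR mice 1 to 3. OP mouse 1 stood lowest, and OR mouse 2 lay within the range of the OP mice. The OR mean of 2.56 ± 1.14 (SD, n = 3) was 2.36 times the OP mean of 1.08 ± 0.569 (SD, n = 3), with a log2 fold change of -0.76 (standard error 0.32, unadjusted limma-trend p = 0.0450, exact permutation p = 0.2). Under the 14 alternative settings that kept *Fbn1*, the unadjusted limma p was below 0.05 in 7, and the call was lost without OP mouse 1, OP mouse 2, OR mouse 1 or OR mouse 3.

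*Mfap2* and *Mfap4* encode microfibril-associated proteins. The *Mfap2* protein (MAGP-1) decorates fibrillin microfibrils, and the *Mfap4* protein is a fibrinogen-related glycoprotein that binds elastin and fibrillin. *Mfap2* measured 1.12, 1.1 and 1.47 FPKM across OP mice 1 to 3 against 1.75, 1.82 and 3.03 FPKM across OR mice 1 to 3. The groups did not overlap, but the gap between OP mouse 3 and OR mouse 1 was small beside the distance from the other OR mice to OR mouse 3. The log2 fold change of *Mfap2* was -0.50 (standard error 0.21, unadjusted limma-trend p = 0.0462, exact permutation p = 0.1), and it had an unadjusted limma p below 0.05 in 6 of 15 alternatives, and lost the call when any mouse except OP mouse 3 was left out.

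*Mfap4* measured 1.47, 4 and 5.9 FPKM across OP mice 1 to 3 against 4.47, 3.73 and 12.16 FPKM across OR mice 1 to 3. OP mouse 3 was above OR mice 1 and 2, so the difference in means rested on the lowest mouse, OP mouse 1, and the highest, OR mouse 3. The log2 fold change was -0.67 (standard error 0.50, 95% interval -1.83 to 0.49, unadjusted limma-trend p = 0.219, exact permutation p = 0.5). Without both of these mice the log2 fold change was 0.21, the opposite direction.

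Fibulins are calcium-binding glycoproteins that bridge elastin, microfibrils and basement membranes. *Fbln2*, whose protein binds fibrillin-1 and tropoelastin, measured 1.79, 1.49 and 2.57 FPKM across OP mice 1 to 3 against 5.55, 5.07 and 6.4 FPKM across OR mice 1 to 3. The 3 mice of each group lay close together and the groups were far apart. The OR mean of 5.67 ± 0.674 (SD, n = 3) was 2.91 times the OP mean of 1.95 ± 0.557 (SD, n = 3). With a log2 fold change of -1.19 (standard error 0.21, 95% interval -1.67 to -0.71), *Fbln2* had the lowest unadjusted limma-trend p of the 10 genes at 0.000572 (q-value 0.582, exact permutation p = 0.1), and it ranked 13 by p among the 13520 genes. Under all 15 alternative settings the unadjusted limma p of *Fbln2* stayed below 0.05, with a log2 fold change between -1.52 and -1.08.

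*Fbln5* encodes fibulin-5, which ties tropoelastin to microfibrils and to cell surface integrins. It measured 0.84, 2.14 and 2.31 FPKM across OP mice 1 to 3 against 4.25, 2.85 and 5.44 FPKM across OR mice 1 to 3. OP mouse 1 was again the lowest and OR mouse 3 the highest, and OR mouse 2 lay nearest to the OP mice without reaching them. The OR mean of 4.18 ± 1.3 (SD, n = 3) was 2.37 times the OP mean of 1.76 ± 0.804 (SD, n = 3), and the log2 fold change was -0.92 (standard error 0.30, unadjusted limma-trend p = 0.0171, exact permutation p = 0.1). Without OR mouse 3 the log2 fold change was -0.75, without both OP mouse 1 and OR mouse 3 it was -0.48, and in both cases the unadjusted limma-trend p was above 0.05.

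*Efemp2* encodes fibulin-4, which brings lysyl oxidase to elastin. It measured 5.65, 4.77 and 5.7 FPKM across OP mice 1 to 3 against 8.49, 6.72 and 8.62 FPKM across OR mice 1 to 3. Both groups were tight and did not overlap. The OR mean of 7.94 ± 1.06 (SD, n = 3) was 1.48 times the OP mean of 5.37 ± 0.523 (SD, n = 3), a smaller ratio than in the other fibulins, and the log2 fold change was -0.48 (standard error 0.18, unadjusted limma-trend p = 0.0295, exact permutation p = 0.1). The unadjusted limma p of *Efemp2* was below 0.05 in 9 of 15 alternatives. It was above 0.05 without OP mouse 2, OR mouse 1 or OR mouse 3, with the replicate block, without both OP mouse 1 and OR mouse 3, and with median-of-ratios scaling, where the log2 fold change was -0.36.

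*Fbln1*, whose protein is found in elastic fibres and basement membranes, measured 3.01, 8.03 and 10.17 FPKM across OP mice 1 to 3 against 8.77, 9.92 and 23.59 FPKM across OR mice 1 to 3. OR mice 1 and 2 lay within the range of the OP mice, and OR mouse 3 alone stood above it. The log2 fold change was -0.90 (standard error 0.48, 95% interval -2.01 to 0.22, unadjusted limma-trend p = 0.0991, exact permutation p = 0.3), and without both OP mouse 1 and OR mouse 3 it was -0.04. With the replicate block the unadjusted limma p of *Fbln1* was below 0.05, but the replicate numbers do not pair the mice. *Fbln1* and *Fbln5* thus had close fold changes, but OP and OR mice overlapped in *Fbln1* and not in *Fbln5*.

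*Emilin1* encodes the glycoprotein at the interface between elastin and microfibril, which also holds back TGF-β processing. It measured 8.16, 9.67 and 11.5 FPKM across OP mice 1 to 3 against 13.41, 11.57 and 12.75 FPKM across OR mice 1 to 3. OP mouse 3 lay just below OR mouse 2, so the groups were apart by a narrow margin. The OR mean of 12.6 ± 0.932 (SD, n = 3) was 1.29 times the OP mean of 9.78 ± 1.67 (SD, n = 3), the smallest ratio of the 10, with a log2 fold change of -0.34 (standard error 0.17, unadjusted limma-trend p = 0.0887, exact permutation p = 0.1). Without OP mouse 3 it was -0.46 and the unadjusted limma-trend p was below 0.05.

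*Emilin2*, a second member of the same family, measured 0.16, 0.16 and 0.14 FPKM across OP mice 1 to 3 against 0.6, 0.72 and 0.95 FPKM across OR mice 1 to 3. Every OP mouse was below the filter of 0.5 and every OR mouse above it. The ratio of the means was 4.93, yet the log2 fold change was only -0.60 (standard error 0.15, unadjusted limma-trend p = 0.00457, exact permutation p = 0.1), because the values are small beside the 1 that was added. With a pseudocount of 0.1 the log2 fold change was -1.74.

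In each mouse the 10 genes together made up a small part of colon RNA, from 0.00411% of the summed FPKM in OP mouse 1 to 0.0139% in OR mouse 3. Their summed FPKM was 24.63, 38.17 and 45.07 across OP mice 1 to 3 against 55.19, 47.87 and 83.65 across OR mice 1 to 3. Every OP mouse was thus below every OR mouse, but OP mouse 3 was near OR mouse 2, and the spread within each group was wide. OR mouse 3 was the highest of the 6 mice in 9 of the 10 genes, all but *Emilin1*, in which OR mouse 1 was highest. OP mouse 1 was the lowest in 6 of the 10, and no OR mouse was the lowest in any. The ratio of OR mouse 3 to OP mouse 1 ran from 1.53 in *Efemp2* to 8.60 in *Fbn1*. Without both of these mice the median log2 fold change of the 10 was -0.29, and 2 genes had an unadjusted limma-trend p below 0.05. Those 2 were *Fbln2* and *Emilin2*, and *Emilin2* had to differ.

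**Figure D3:**
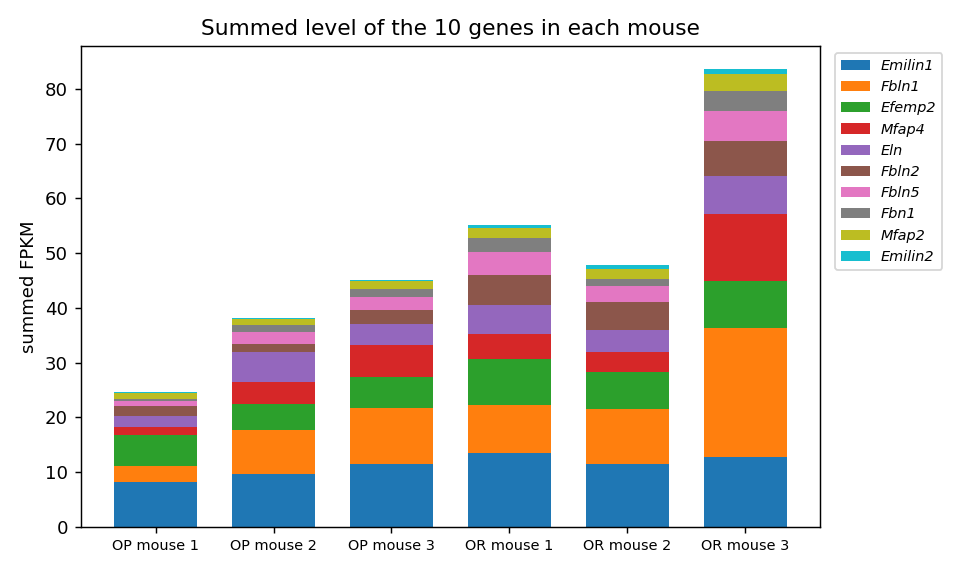
Summed FPKM of the 10 genes in each of the 6 mice, stacked by gene from the highest mean level (*Emilin1*, bottom) to the lowest (*Emilin2*, top). The bars reach 24.63 to 45.07 in the OP mice and 47.87 to 83.65 in the OR mice.

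By mean FPKM over the 6 mice the order was *Emilin1* (11.2), *Fbln1* (10.6), *Efemp2* (6.66), *Mfap4* (5.29), *Eln* (4.62), *Fbln2* (3.81), *Fbln5* (2.97), *Fbn1* (1.82), *Mfap2* (1.72) and *Emilin2* (0.455). Only the steps from *Fbln5* to *Fbn1* and from *Mfap2* to *Emilin2* held in all 6 mice, and in the other 7 neighbouring pairs the order turned in at least 1 mouse. *Emilin1* and *Fbln1* lay near the middle of all genes tested, with 53.0% and 51.6% of genes below them, while *Fbln2*, *Fbln5* and *Mfap2* lay above 27.9%, 23.7% and 15.1% of genes.

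The make-up of the summed level also differed between mice. *Emilin1* made up 28.0% ± 4.45 (SD, n = 3) of the summed FPKM of the 10 genes in OP mice, against 21.2% ± 5.19 (SD, n = 3) for OR. *Fbln2* made up 5.62% ± 1.68 (SD, n = 3) for OP against 9.43% ± 1.57 (SD, n = 3) for OR. For both, and for *Fbln5*, the shares did not overlap between the groups (two-sided exact permutation p = 0.1, the smallest possible). The shares of *Emilin2*, which had to differ, are not counted here, and for the other 6 genes the shares overlapped. *Mfap2* kept nearly the same mean share, 3.56% ± 0.873 (SD, n = 3) for OP against 3.53% ± 0.325 (SD, n = 3) for OR.

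Each member was also compared with the mean of the other 9 within each mouse on the log2(FPKM + 1) scale. *Fbln2* lay 0.56 further down in OP mice than in OR mice relative to the others (exact permutation p = 0.2), and *Emilin1* lay 0.38 higher (exact permutation p = 0.1). In 10 such comparisons, *Emilin1* alone reached the smallest p that the design allows. Adjusted over the 10 by the Benjamini-Hochberg method, its exact permutation p was 0.667. No order among the fold changes of the 10 genes can be fixed from 3 mice against 3.

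The rest of the elastic fibre pathway was taken from 7 lists of 47 genes. Of these, 46 were in the file, 36 passed the filter, 28 had a lower mean log2 level in OP mice (70.1% of all genes tested did) and 12 were lower at an unadjusted limma-trend p below 0.05 (3.53% of all genes tested), with 0 higher. Without *Adamtsl2*, which passed the filter only through its OR mice and so had to differ, these counts were 27 and 11 of 35. Over the 36 the median fold change was -0.31 on the log2 scale, and the lowest q-value was 0.582. The count of 12 became 6 without OR mouse 3, 4 when each of the 6 mice had to reach an FPKM of 1, and 7 with replicate numbers as a block.

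The structural relatives of the 10 genes had the lowest median of the 7 lists, -1.02 over the 6 of 9 that passed the filter. All 6 had an unadjusted limma-trend p below 0.05 (3.53% of all genes tested were lower at that p). In all 6 each OP mouse was below each OR mouse (6.81% of all genes tested). *Mfap5*, which encodes MAGP-2, the second microfibril-associated glycoprotein, measured 0.75, 0.57 and 0.7 FPKM across OP mice 1 to 3 against 2.47, 2.5 and 4.44 FPKM across OR mice 1 to 3, a log2 fold change of -1.27 (standard error 0.22, unadjusted limma-trend p = 0.000602, exact permutation p = 0.1). *Efemp1*, which encodes fibulin-3, measured 6.29, 2.47 and 6.76 FPKM across OP mice 1 to 3 against 11.13, 13.05 and 17.47 FPKM across OR mice 1 to 3, a log2 fold change of -1.33 (standard error 0.34, unadjusted limma-trend p = 0.00508, exact permutation p = 0.1). These relatives lay on the same side of 0 as all of the 10 genes and as 70.1% of all genes tested.

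*Fbln7* had a log2 fold change of -0.46, and *Vcan*, which encodes the proteoglycan versican, had -0.60. *Mmrn1* and *Mmrn2* share the emilin fold but are made chiefly by endothelial cells and, for *Mmrn1*, platelets, and had log2 fold changes of -1.41 and -0.76. *Fbn2*, *Hmcn1* and *Emilin3* were below the filter, with mean FPKM over the 6 mice of 0.307, 0.240 and 0.417, and in each of them the groups overlapped.

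Latent TGF-β binding proteins share their repeats with fibrillin, and 1 of the 3 that passed the filter had an unadjusted limma-trend p below 0.05. This was *Ltbp4*, whose protein helps fibulin-4 and fibulin-5 to deposit elastin. *Ltbp4* measured 6.92, 8.4 and 13.66 FPKM across OP mice 1 to 3 against 18.89, 23.53 and 34.9 FPKM across OR mice 1 to 3. Each OR mouse was above each OP mouse, and the log2 fold change of *Ltbp4* was -1.33 (standard error 0.30, unadjusted limma-trend p = 0.00251, q-value 0.710, exact permutation p = 0.1). *Ltbp1* and *Ltbp3* had -0.43 and -0.27, and *Ltbp2* was below the filter.

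The cross-linking enzymes oxidise lysines of elastin and collagen, and 2 of the 4 that passed the filter had an unadjusted limma-trend p below 0.05. *Loxl1*, which acts on elastin, had a log2 fold change of -0.58 with groups that did not overlap (1.63, 1.59 and 1.04 FPKM across OP mice against 2.68, 1.86 and 3.42 across OR mice). *Lox* had -0.49 with groups that overlapped, *Loxl2* and *Loxl3* had -0.40 and -0.21, and *Loxl4* was below the filter. Of the ADAMTS and ADAMTS-like proteins, which bind fibrillin, 7 of 9 passed the filter and 2 of the 7 had an unadjusted limma-trend p below 0.05: *Adamtsl1* at -0.57 and *Adamtsl2* at -0.41. *Adamtsl5*, *Adamtsl4* and *Adamts10*, the highest of the others, lay between -0.27 and -0.02, and *Adamts6* and *Adamts17* were below the filter.

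Receptor and protease genes lay nearer to 0 on median, at -0.15 for the integrins, -0.01 for the elastin receptor complex and 0.01 for the proteases. Of 7 integrin genes that passed the filter, 0 had an unadjusted limma-trend p below 0.05, and *Itgb1*, *Itgb5* and *Itgav*, the highest, had log2 fold changes of -0.31, 0.04 and 0.34. *Itgb8* was below the filter. *Glb1*, *Neu1* and *Ctsa*, which encode the elastin receptor complex, lay between -0.29 and 0.15. Among the elastin-degrading proteases, *Mmp2*, a gelatinase made by fibroblasts, was the only gene of 6 with an unadjusted limma-trend p below 0.05 (log2 fold change -1.03, p = 0.0232, exact permutation p = 0.2), while the lysosomal cathepsins *Ctss* and *Ctsl* and the elastase *Cela1* had 0.26, 0.24 and 0.24. *Mmp9* and *Mmp12* were below the filter, and *Elane* was not analysed here.

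**Figure D4:**
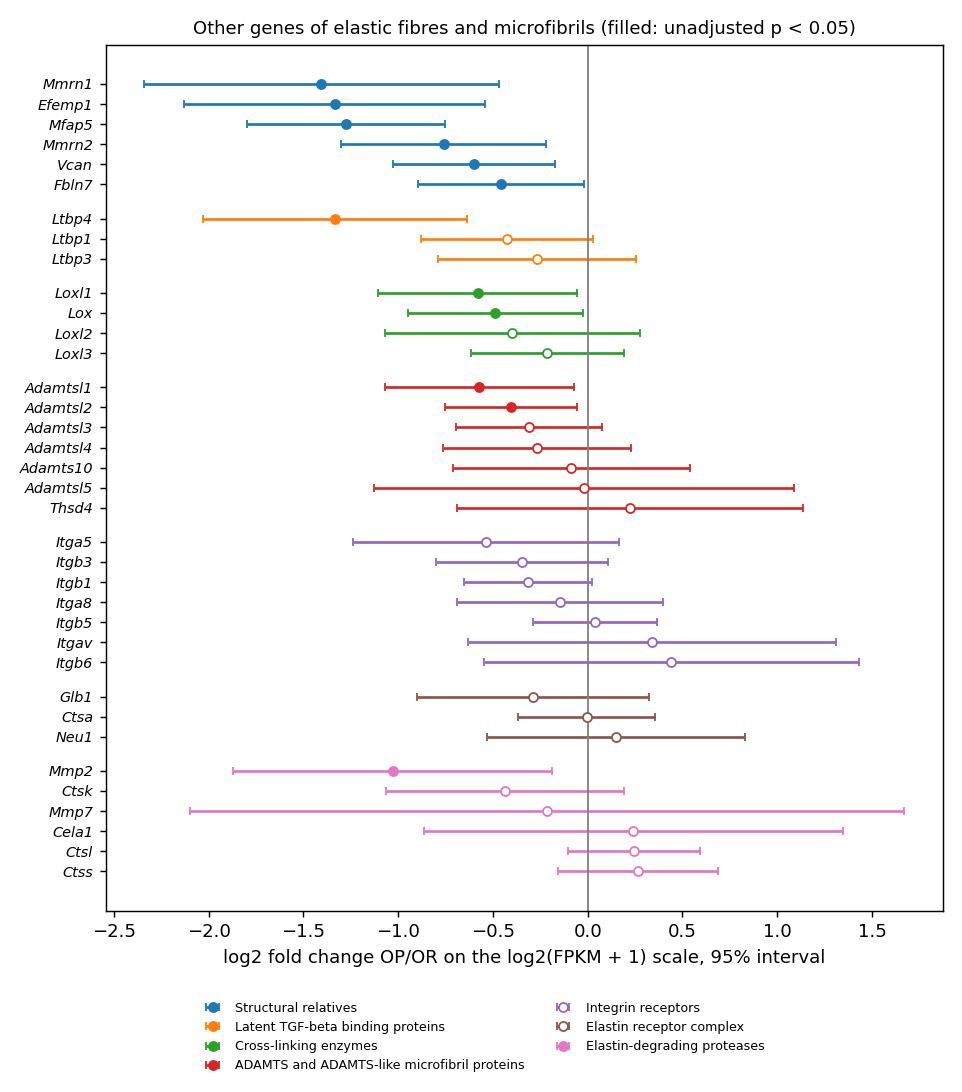
Log2 fold change OP/OR with its 95% interval (limma-trend, log2(FPKM + 1) scale) of the 36 other genes that passed the filter, coloured by list and filled where the unadjusted p is below 0.05. The 6 structural relatives lie between -1.41 and -0.46, whereas the 3 genes of the elastin receptor complex lie between -0.29 and 0.15.

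Markers of fibroblasts and blood endothelium moved with the 10 genes, and the part of any marker list in the result was not tested. Of all genes tested, 70.1% were lower in OP mice, and 3.53% were lower at an unadjusted limma-trend p below 0.05. All 11 fibroblast markers were lower in OP mice, 8 of them at an unadjusted limma-trend p below 0.05, with a summed FPKM of 143.57 to 231.18 in OP mice and of 322.74 to 477.65 in OR mice and no marker at 0. Of the blood endothelial markers 10 of 10 were lower, 8 of them at an unadjusted limma-trend p below 0.05, with a summed FPKM of 19.27 to 29.85 against 33.8 to 56.68. Of the macrophage markers 9 of 10 were lower and 8 had an unadjusted limma-trend p below 0.05, with sums that overlapped (107.05 to 280.34 and 200.88 to 272.84).

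For the remaining marker lists the sums overlapped between OP and OR mice as well. Since 70.1% of all genes tested were lower in OP mice, a count of lower markers in a short list says little by itself. Smooth muscle markers were lower in 10 of 10 genes with 0 at an unadjusted limma-trend p below 0.05, and their sums of 1896 to 2808 FPKM in OP mice and 2277 to 4174 in OR mice overlapped. Of the colon epithelium markers 4 of 11 were lower, 0 had an unadjusted limma-trend p below 0.05, and the sums overlapped (11720 to 23848 and 12551 to 25232 FPKM). Adipocyte markers were lower in 9 of 10 genes, 1 of them at an unadjusted limma-trend p below 0.05, and their sums of 68.58 to 208.34 and 139.13 to 483.66 FPKM overlapped. *Adipoq*, *Plin1*, *Lep*, *Retn* and *Cfd* were at 0 in OP mouse 2. Of the 4 mesothelial markers that passed the filter 3 were lower and 1 had an unadjusted limma-trend p below 0.05, with sums over all 6 markers of 1.9 to 8.68 and 5.16 to 8.94 FPKM. The enteric neuron and glia markers were lower in 4 of 8 genes, with sums of 28.52 to 59.69 and 29.5 to 61.67 FPKM, and the skeletal muscle markers in 3 of 3, with sums of 15.36 to 26.04 and 21.16 to 43.72 FPKM. In both lists 0 had an unadjusted limma-trend p below 0.05.

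Set against the fibroblast markers of the same mouse, the OP and OR mice overlapped. The mean log2(FPKM + 1) of the 10 genes was 1.86 ± 0.326 (SD, n = 3) for OP against 2.55 ± 0.332 (SD, n = 3) for OR, a difference of -0.69. After subtraction of the mean of the 11 fibroblast markers it was -2.02, -1.38 and -1.83 across OP mice 1 to 3 against -1.89, -2.00 and -1.70 across OR mice 1 to 3. The difference was then 0.12 (two-sided exact permutation p = 0.7), with the OR mice inside the range of the OP mice. This was not particular to the fibroblast markers. The difference was 0.03 after subtraction of the blood endothelial markers (exact permutation p = 0.8), 0.05 after that of the macrophage markers (exact permutation p = 1) and 0.13 after that of the adipocyte markers (exact permutation p = 0.9). It was -0.41 against the smooth muscle markers (exact permutation p = 0.4), -0.66 against the colon epithelium markers (exact permutation p = 0.2), and between -0.55 and -0.37 against the mesothelial, enteric neuron and glia, and skeletal muscle markers. The OP and OR mice overlapped in each of these 9 comparisons. *Dcn*, *Col1a2*, *Col5a1*, *Col6a1*, *Col6a2*, *Fn1* and *Sparc* among these markers encode matrix proteins themselves, and p-values of this size do not show that the ratios were equal.

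**Figure D5:**
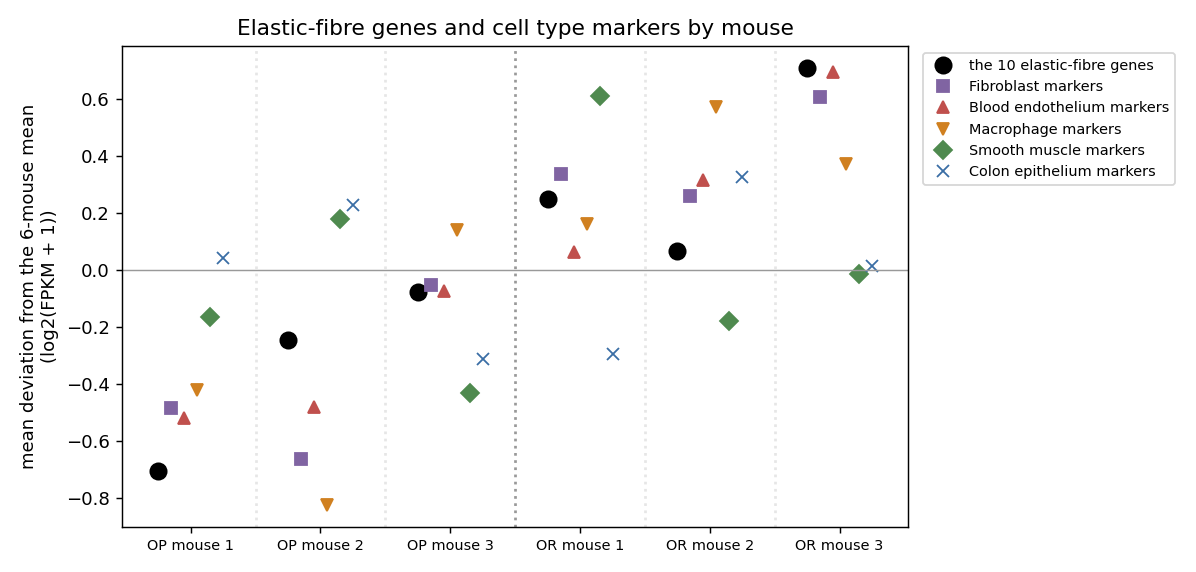
Mean deviation of each mouse from the 6-mouse mean on the log2(FPKM + 1) scale for the 10 elastic-fibre genes (black) and for the markers of 5 cell types. The black points lie at -0.71, -0.24 and -0.08 in the OP mice and at 0.25, 0.07 and 0.71 in the OR mice, with the fibroblast and blood endothelium points on the same side of 0 in each mouse.

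The genes outside the list whose pattern over the 6 mice was nearest to the mean pattern of the 10 were *Pde4b*, *Scx*, *Anxa5*, *Cdca4* and *Cmtm3*. Likeness was measured as the root mean square difference of the deviations from each gene's own mean on the log2(FPKM + 1) scale, and it was 0.0689 for *Pde4b* and 0.104 to 0.111 for the other 4, beside a median of 0.403 over the 13510 other genes tested. *Scx* encodes scleraxis, a transcription factor of tendon and other matrix-producing cells, and measured 0.16, 0.5 and 0.61 FPKM across OP mice 1 to 3 against 1.02, 0.57 and 1.67 FPKM across OR mice 1 to 3. *Pde4b*, which encodes a cyclic AMP phosphodiesterase, measured 1.23, 1.8 and 2.63 FPKM across OP mice 1 to 3 against 3.23, 2.96 and 5.09 FPKM across OR mice 1 to 3. In both, as in the mean of the 10 genes, OP mouse 1 was lowest and OR mouse 3 highest. That likeness follows from how these genes were picked. Among the 10 genes, *Fbn1* lay nearest to the mean of the other 9 (0.158) and *Fbln1* furthest from it (0.423).

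Promoter windows from RefSeq on build GRCm38.p6, from 250 bases before to 50 bases after an annotated start, were matched by symbol for 8 of the 10 genes, with 14 windows in all. *Eln* and *Mfap4* were not matched. Shown are the 250 bases before the start for *Fbln2* and *Fbln5*, the 2 genes with the lowest log2 fold changes, and for *Emilin1*, the gene with the highest. Capitals mark matches to 6 short motifs searched on both strands: the TATA box TATAAA, the GC box GGGCGG, the AP-1 element TGANTCA, the SMAD element CAGACA, the E-box CACGTG and the TEAD element GGAATG.
*Fbln2* promoter, chr6:91212514-91212763, plus strand: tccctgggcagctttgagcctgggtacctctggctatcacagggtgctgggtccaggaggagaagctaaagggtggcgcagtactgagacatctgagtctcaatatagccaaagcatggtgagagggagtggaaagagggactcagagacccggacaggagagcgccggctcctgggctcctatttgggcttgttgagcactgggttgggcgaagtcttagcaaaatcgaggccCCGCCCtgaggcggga
*Fbln5* promoter, chr12:101819120-101819369, minus strand: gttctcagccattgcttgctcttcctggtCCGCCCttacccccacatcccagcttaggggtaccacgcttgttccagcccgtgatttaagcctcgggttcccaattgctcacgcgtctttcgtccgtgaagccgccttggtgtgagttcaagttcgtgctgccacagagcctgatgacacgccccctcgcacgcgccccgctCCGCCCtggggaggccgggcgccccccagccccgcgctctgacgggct
*Emilin1* promoter, chr5:30913536-30913785, plus strand: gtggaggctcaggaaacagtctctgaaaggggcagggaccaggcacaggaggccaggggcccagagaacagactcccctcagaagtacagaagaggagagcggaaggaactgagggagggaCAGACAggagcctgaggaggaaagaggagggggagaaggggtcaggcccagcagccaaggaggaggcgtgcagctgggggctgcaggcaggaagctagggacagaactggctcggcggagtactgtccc

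In *Fbln2* and *Fbln5* the capitals are the GC box, read as CCGCCC since it lies on the other strand, and in *Emilin1* they are the SMAD element. *Fbln5* has another window, not shown, whose only match is the SMAD element, so that element does not set *Emilin1* apart. The GC box stood in 9 of the 14 windows and in 7 of the 8 genes, all but *Emilin1*. It is common, in 60.1% of the 13772 windows of tested genes and 35.7% of all 32851 windows. The TATA box and the AP-1 element were in 0 of the 14 windows, beside 7.65% and 5.55% of the windows of tested genes. The SMAD element was in 5 of the 14 windows (16.4% of the windows of tested genes), the E-box in 2 (9.53%) and the TEAD element in 2 (12.3%). Windows of *Fbln1*, of *Mfap2* and of *Efemp2* overlap each other, so these counts are not independent, and a match describes letters and not a bound site.

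The study also designed primers for 5 of the 10 genes (*Fbln1*, *Fbln2*, *Fbn1*, *Mfap2* and *Mfap4*), for quantitative real-time PCR. By that method the paper reports *Fbln1*, *Fbln2*, *Fbn1* and *Mfap2* as significantly higher in OR mice. Its text does not name *Mfap4* among such genes. The paper used an unpaired t test with the same n as here, and does not say whether those were the sequenced mice. The primers are described to show which part of each transcript they read, since an FPKM value covers the whole gene. The pairs for *Fbln2* and *Fbln1* are shown.
*Fbln2* forward primer: agatagaggtgccccacagt
*Fbln2* reverse primer: gcccattgtctttgcaggtg
*Fbln1* forward primer: ccgccaagagaaaacagacac
*Fbln1* reverse primer: cgggtgaactctcgaaaggtg

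Each of the 5 pairs matched transcripts of its own gene alone among the GENCODE M21 transcripts, without a mismatch. The *Fbln2* pair spans coding exons 6 to 8, gives a product of 125 bp and is held by 2 of the 5 coding transcripts annotated. The *Fbln1* pair lies within coding exon 15, gives a product of 132 bp and is held by 1 of the 2 coding transcripts annotated, so it reads 1 of the isoforms that the *Fbln1* FPKM adds up. The pairs for *Fbn1*, *Mfap2* and *Mfap4* match 2 of 2 coding transcripts each, and all of these products lie in coding sequence.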

How the data were processed

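Colon RNA of 3 OP and 3 OR mice was measured by strand-specific mRNA sequencing. Per the methods, the authors filtered reads with SOAPnuke, aligned them with Bowtie2 and quantified genes with RSEM. Labels and methods disagree on the versions and the gene set, and the submitters' processing notes name GRCm39 and HISAT2 2.0.4. The deposited values are FPKM with 2 decimals, 1 column per mouse, and 0 other columns were left unused. Depth is unknown and limits the low genes.

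Groups and replicate numbers came from the labels. Genes reaching an FPKM of 0.5 in 3 or more mice were tested as log2(FPKM + 1) by limma-trend with no covariate (limma 3.58.1, R 4.3.3) and Benjamini-Hochberg adjustment over the 13520 genes. The study's DESeq2 needs counts and was not run. The test was tried on simulated data. Single values were compared by two-sided exact permutation tests (SciPy 1.17.1).

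The members and lists were chosen with earlier results of these data known. All 10 members are named, and from each other list the genes at an unadjusted p below 0.05, up to 3 of the highest others and those below the filter. Genes most alike were the 5 of smallest distance. Replicates are separate mice, and p-values measure only the spread between these mice. Promoters and transcripts belong to GRCm38, another build than the authors', and were matched by symbol.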

Additional observations from a re-analysis of the deposited data

How the results depend on the processing

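The alternatives tried were median-of-ratios scaling, limma without trend, rescaling to TPM, a pseudocount of 0.1, no filter beyond a value above 0, an FPKM of 1 reached by each mouse (which left 7 of the 10 genes), sample weights, a replicate block and each mouse left out. Leaving out OP mouse 1 and OR mouse 3 together was chosen after seeing the data. The cause of the changes below was not tested, apart from the fewer genes or mice that some settings hold.

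The median log2 fold change of the 10 genes was -0.63. It stayed between -0.80 and -0.46 with 1 mouse left out, was -0.57 with median-of-ratios scaling, which moved the median of all genes from -0.10 to 0.01, and was -0.29 without both OP mouse 1 and OR mouse 3. All 10 genes kept a negative log2 fold change under every alternative run, except *Mfap4*, which was 0.21 without both mice and -0.99 to -0.21 with 1 mouse left out. Of the 10, 6 were lower at an unadjusted limma p below 0.05. The count was 4 with median-of-ratios scaling and 4 with a pseudocount of 0.1. It was 3 where each mouse had to reach 1, 2 without both mice, and 2 to 7 with 1 mouse left out. *Emilin2*, which had to differ, is in each of these counts except where each mouse had to reach 1. The count of genes whose groups did not overlap was 6, and 6 to 8 with 1 mouse left out. Leaving out a mouse can only keep or raise that count, so this range does not speak for its stability.

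Of the other elastic-fibre genes 12 were lower at that p. The count was 4 where each mouse had to reach 1, 7 with the replicate block, 3 without both mice, and 6 to 13 with 1 mouse left out. Over all genes, a q-value below 0.2 was reached by 3 with a lower level in OP mice. The count was 0 with median-of-ratios scaling, rescaling to TPM, a pseudocount of 0.1, no filter, an FPKM of 1 in each mouse, the replicate block, both mice left out or a q-value level of 0.05, 5 with sample weights, and 0 to 1 with 1 mouse left out. 0 genes were higher under each of them.

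At an unadjusted limma p below 0.05, 477 genes were lower and 68 higher. The lower count was 317 where each mouse had to reach 1, 199 without both mice, and 231 (without OR mouse 3) to 1104 (without OP mouse 3) with 1 mouse left out. The higher count was 153 with median-of-ratios scaling, 133 with no filter, 146 with sample weights, and 24 (without OR mouse 3) to 181 (without OP mouse 3) with 1 mouse left out. Median-of-ratios scaling gave 423 that were lower.

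Mice with the same number were different animals, and their deviations from the group means correlated at -0.14, -0.16 and 0.07, so the numbers do not pair the mice. Between OP and OR mice of different number the correlations ran from -0.46 (OP mouse 1 with OR mouse 3) to 0.54 (OP mouse 1 with OR mouse 2). With the replicate block, 5 of the 10 genes were lower at an unadjusted limma p below 0.05: *Fbln1* gained the call, and *Mfap2* and *Efemp2* lost it.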

Other observations

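Some colon epithelium markers differed widely between single mice, apart from the groups. Others differed less, such as *Epcam* (934.63 to 1187.94 FPKM) and *Krt19* (1851.52 to 2756.62 FPKM). *Car1*, a carbonic anhydrase of surface colonocytes, had an FPKM of 14584.5 in OP mouse 1 and 15723 in OR mouse 2 and of 1054 to 6339 in the other 4 mice. *Muc2*, the main mucin of goblet cells, measured 17.59, 563.42 and 188.41 FPKM across OP mice 1 to 3 against 154.44, 275.69 and 933.17 FPKM across OR mice 1 to 3, lowest in OP mouse 1 and highest in OR mouse 3. These are also the mice with the lowest and the highest summed FPKM of the 10 elastic-fibre genes, 24.63 and 83.65. The 2 orders differed elsewhere: OP mouse 2 was above OR mice 1 and 2 in *Muc2* but below them in the summed FPKM (38.17 against 55.19 and 47.87). *Krt20*, a keratin of differentiated colonocytes, had 1300 FPKM in OP mouse 1 and 976.24 in OR mouse 2, which had the lowest summed FPKM of the elastic-fibre genes in their groups, and 936.93 in OP mouse 2. The part of these differences in the result was not tested.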
